A study of Homo sapiens with 12 samples.

Results

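The 46 genes described here encode proteins of the focal adhesion plaque and of the contractile actin cytoskeleton. They were taken by gene symbol from the 60623 genes counted, and all 46 had enough reads to be tested. Focal adhesions are protein assemblies in which integrins, the cell's receptors for the extracellular matrix, are tied through linker proteins to actin filaments, and focal adhesion kinase (FAK) is one of their main signalling proteins. The small GTPase RhoA drives the assembly and contraction of those filaments through ROCK kinases, formins and non-muscle myosin II. Polymerisation of actin also frees the MRTF cofactors of SRF, the transcription factor that activates many of the genes on this list in cells in general.

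RNA was sequenced from cells labelled as NUGC-4, an established diffuse gastric cancer cell line, and as wild type, after 24 h of treatment. The groups received IN10018 (1 µM), crizotinib (1 µM), both together at these doses (the combination), or no drug named in the labels (control). Each of the 4 groups has 3 libraries. IN10018 blocks FAK, and crizotinib blocks several receptor kinases, among them MET, ALK and ROS1. Neither a vehicle for the control nor the origin of the 3 libraries of a group in separate cultures is stated, so the p-values describe the spread among libraries, which may be technical.

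Total reads ran from 13691844 to 20489708 per library. The members together took 0.878 to 0.941% of reads with IN10018, 0.905 to 0.986% with crizotinib, 0.975 to 1.03% with the combination and 0.962 to 0.989% in control. Mitochondrially encoded genes took 11.5 to 12.7% of reads with IN10018, 5.21 to 13.3% with crizotinib, 4.28 to 6.99% with the combination and 11 to 11.9% in control, and crizotinib library 2 held the lowest share of its group. Of 6 epithelial markers, KRT8, KRT18, EPCAM, CDH1 and CLDN4 were at 1391, 617, 18.6, 5.21 and 1.63 CPM in control, and the keratin gene KRT19 had no reads in any library. The 6 together came to 1675 to 1845 CPM with IN10018, 1795 to 3139 with crizotinib, 2354 to 3583 with the combination and 1976 to 2111 in control. Of 5 gastric marker genes (TFF1, TFF2, CLDN18, MUC5AC and GKN1), TFF2 had no reads, and the 5 together reached at most 0.417 CPM in any library. At that level these 5 do not bear out the labelled gastric origin, and the identity of the cells was not tested further. The collagen gene COL3A1 was at 6046 CPM in control, while CNN1 of the same fibroblast and smooth muscle list of 11 had no reads, and the 11 summed to 5171 to 6124 CPM with IN10018, 5190 to 6668 with crizotinib, 5080 to 6006 with the combination and 5679 to 6255 in control. The endothelial markers PECAM1, VWF and CDH5 summed to 33.9 to 41.3 CPM with the combination, against 18.1 to 21.9 CPM in control. With IN10018 they summed to 23.6 to 25.3 CPM, and with crizotinib to 22.9 to 27.0 CPM. They did not rise as a set, since of the 2 tested, 1 had a log2 change of 2.06 with the combination and 1 of -0.52. Adipocyte markers, a list of 4, summed to 105 to 133 CPM with the combination, against 68.4 to 77.3 CPM in control, nearly all of it FABP4, and ADIPOQ had no reads. The part of these shifts in the changes below was not tested. CPM relate the reads of a gene to the total of its library, after TMM scaling.

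Regulatory sequence of a few members is shown because SRF binds the CArG box, a run of A and T between CC and GG, a motif that reads the same on both strands, and because several members are textbook SRF targets. RefSeq promoters (GRCh38.p14, from 250 bases before a transcript start to 50 after it) were matched for 40 of the 46 members, 82 promoters in all. FERMT1, PARVA, ACTB, TAGLN, MYL9 and SORBS3 were not matched. A CArG box was found in at least 1 promoter of 10 of these 40 genes, or 25%, against 1.6% of 27305 genes. The members have 2.05 promoters per gene in that table, against 1.29 over all genes. Counted by promoter, 12.2% of the 82 hold a box, against 1.29% of all 35116. The 10 are ACTG1, ACTN1, CAPN2, CNN2, FLNA, LPP, ROCK2, SRF, TES and TPM4. Below are the 250 bases before the start of 4 of them, 5′ to 3′ on the strand of the gene, with the CArG boxes in capitals. They lie at chr6:43171019-43171268 (SRF, plus strand), chrX:154374635-154374884 (FLNA, minus), chr17:81512800-81513049 (ACTG1, minus) and chr19:1026358-1026607 (CNN2, plus).
SRF: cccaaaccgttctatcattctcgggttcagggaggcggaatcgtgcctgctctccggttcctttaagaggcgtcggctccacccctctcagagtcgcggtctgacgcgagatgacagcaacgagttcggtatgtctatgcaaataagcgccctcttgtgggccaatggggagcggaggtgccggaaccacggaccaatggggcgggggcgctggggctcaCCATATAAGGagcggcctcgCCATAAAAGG
FLNA: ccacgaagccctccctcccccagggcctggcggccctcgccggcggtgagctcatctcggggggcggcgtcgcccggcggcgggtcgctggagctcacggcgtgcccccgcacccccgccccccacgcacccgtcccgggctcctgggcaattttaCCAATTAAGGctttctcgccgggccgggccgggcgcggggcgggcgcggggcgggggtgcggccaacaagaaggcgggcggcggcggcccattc
ACTG1: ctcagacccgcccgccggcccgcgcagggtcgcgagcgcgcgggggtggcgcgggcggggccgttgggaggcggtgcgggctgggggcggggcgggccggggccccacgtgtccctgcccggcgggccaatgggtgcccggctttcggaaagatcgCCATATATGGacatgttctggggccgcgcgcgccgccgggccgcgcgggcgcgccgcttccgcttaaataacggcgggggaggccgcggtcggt
CNN2: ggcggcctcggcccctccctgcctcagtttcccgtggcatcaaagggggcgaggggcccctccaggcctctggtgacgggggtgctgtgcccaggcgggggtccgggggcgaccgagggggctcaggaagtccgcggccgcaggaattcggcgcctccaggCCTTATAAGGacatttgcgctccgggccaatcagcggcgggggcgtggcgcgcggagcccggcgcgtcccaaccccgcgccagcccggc
SRF, the gene of the factor itself, has 2 boxes, which begin 30 and 10 bases before the start. FLNA and ACTG1 have 1 box each beginning 94 bases before the start, and CNN2 has 1 beginning 89 bases before it. A match to these letters describes the sequence and does not show that SRF was bound there in these cells.

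**Figure D1:**
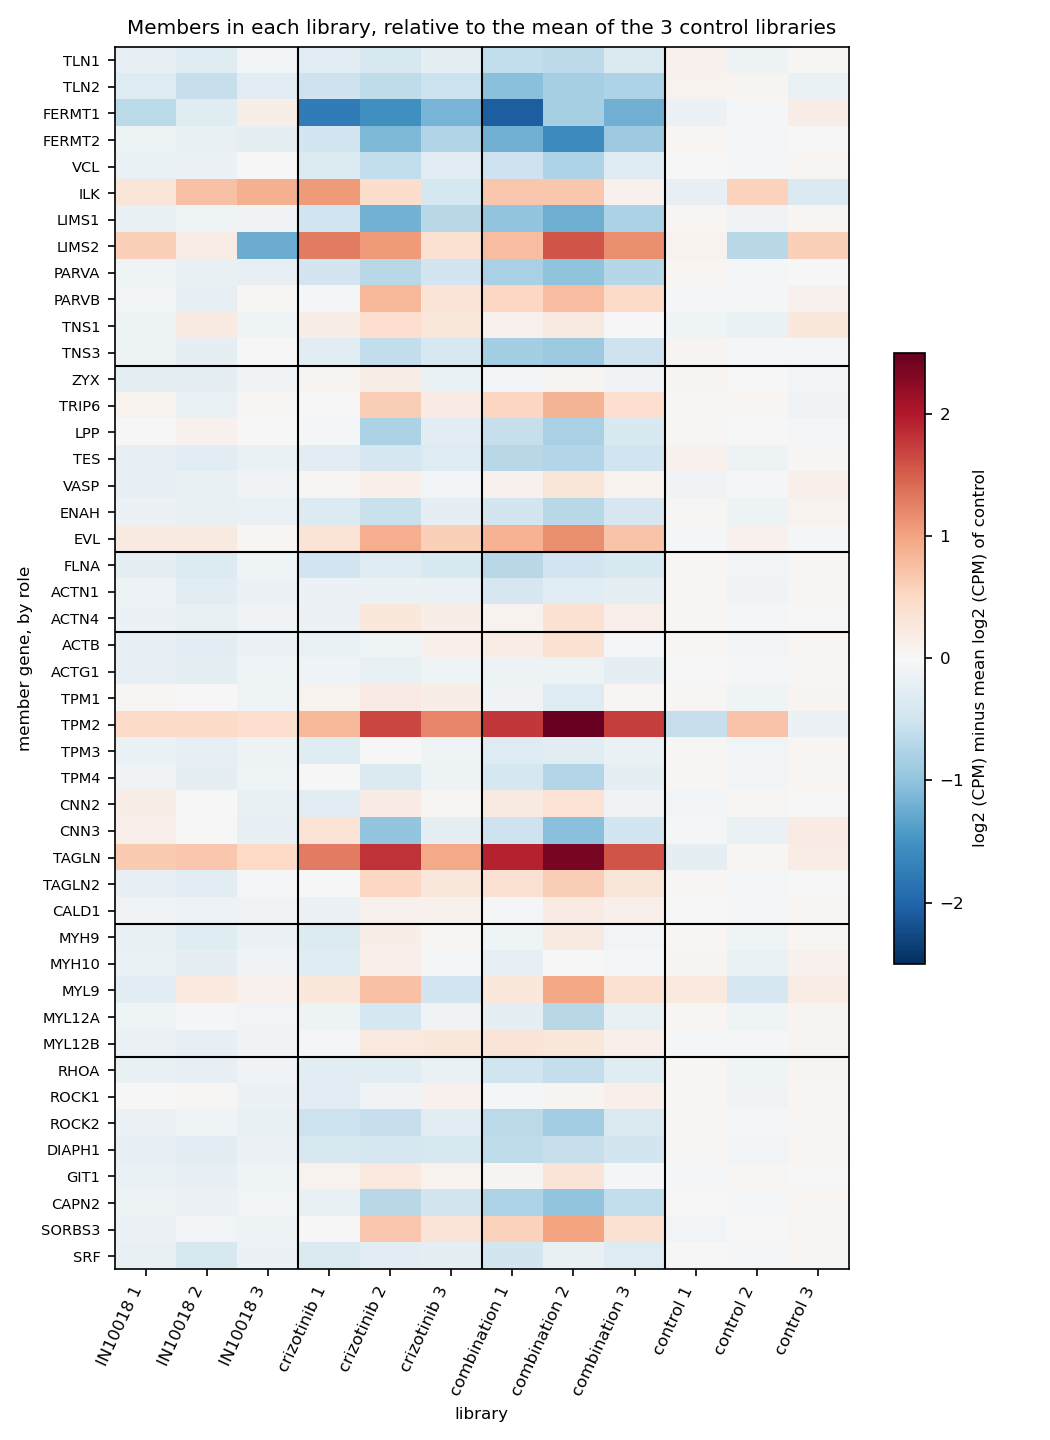
Colours show, for each of the 46 members (rows, by role) and each of the 12 libraries (columns), log2 CPM minus the mean log2 CPM of the 3 control libraries. The combination and crizotinib columns hold most of the deep colours, blue for FERMT1, FERMT2 and LIMS1 and red for TAGLN and TPM2, while the IN10018 columns stay pale for most members.

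No member passed the threshold with IN10018 alone, which was an adjusted p under 0.05 (edgeR quasi-likelihood test, Benjamini-Hochberg over the 17096 genes tested). The count was 0 in both directions, against 0.345% of all tested genes called higher and 0.158% called lower. DESeq2 and limma-voom also called 0 members, and 4 of the 46 had an unadjusted p under 0.05 in edgeR. The median log2 change of the members was -0.14, against -0.02 over all tested genes. Fitted on the 6 IN10018 and control libraries alone, 1 member was higher and 8 were lower, against 8.34% of all genes tested in that fit higher and 5.58% lower. All 3 IN10018 libraries lay below all 3 control libraries for 24 members, and 18.9% of all tested genes did so.

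The smallest p with IN10018 belonged to TLN2, which encodes talin 2, a linker between integrin tails and actin. TLN2 had 21.7, 18.0 and 22.3 CPM in the IN10018 libraries, against 28.7, 28.3 and 24.2 CPM in control. The groups did not overlap, and the log2 change was -0.39 ± 0.12 (SE), with an adjusted p of 0.21 in edgeR. TAGLN was the 1 member whose 3 IN10018 libraries all lay above control, while 14.0% of all tested genes did so. It encodes transgelin, an actin-binding protein best known from smooth muscle, and had 4.70, 4.75 and 4.21 CPM with IN10018, against 2.54, 3.09 and 3.41 CPM in control. Its log2 change was 0.59 ± 0.26, with an adjusted p of 0.412. The formin gene DIAPH1 had 226, 215 and 235 CPM with IN10018, against 266, 248 and 269 CPM in control. On the log2 scale the change was -0.21 ± 0.09, with an adjusted p of 0.39. Across the 46 members, changes with IN10018 ran from -0.39 to 0.60 on the log2 scale.

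With crizotinib alone, 3 members rose and 14 fell. Over all tested genes, 20.0% were called higher and 17.6% lower, and the median log2 change was -0.10 for the members and 0.08 for all tested genes. The genes that rose were TAGLN, TPM2 and EVL. Those that fell were TLN1, TLN2, FERMT1, FERMT2, VCL, LIMS1, PARVA and TNS3 of the core linkers, TES and ENAH, the crosslinker FLNA, and ROCK2, DIAPH1 and CAPN2. The combination had 8 members higher and 22 lower, against 33.7% of all tested genes called higher and 29.1% lower, with a median log2 change of -0.13 for the members and 0.10 for all tested genes. The 3 libraries lay above all control libraries for 5 members and below them for 19 with crizotinib (26.3% and 25.1% of all tested genes), and for 11 and 23 members with the combination (37.9% and 33.2%). Both comparisons use the same 3 control libraries. Scaled by library totals alone, crizotinib had 8 members higher and 7 lower (28.2% and 11.4% of all tested genes), and the combination 14 higher and 16 lower (41.6% and 22.0%), while the median log2 change of all tested genes was then 0.21 with crizotinib and 0.27 with the combination. Single libraries moved the crizotinib counts: 8 members were higher without crizotinib library 1, 8 lower without crizotinib library 2 and 6 lower without control library 1. The shares of all tested genes moved too, to 25.4% higher, 10.7% lower and 7.74% lower in these fits.

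**Figure D2:**
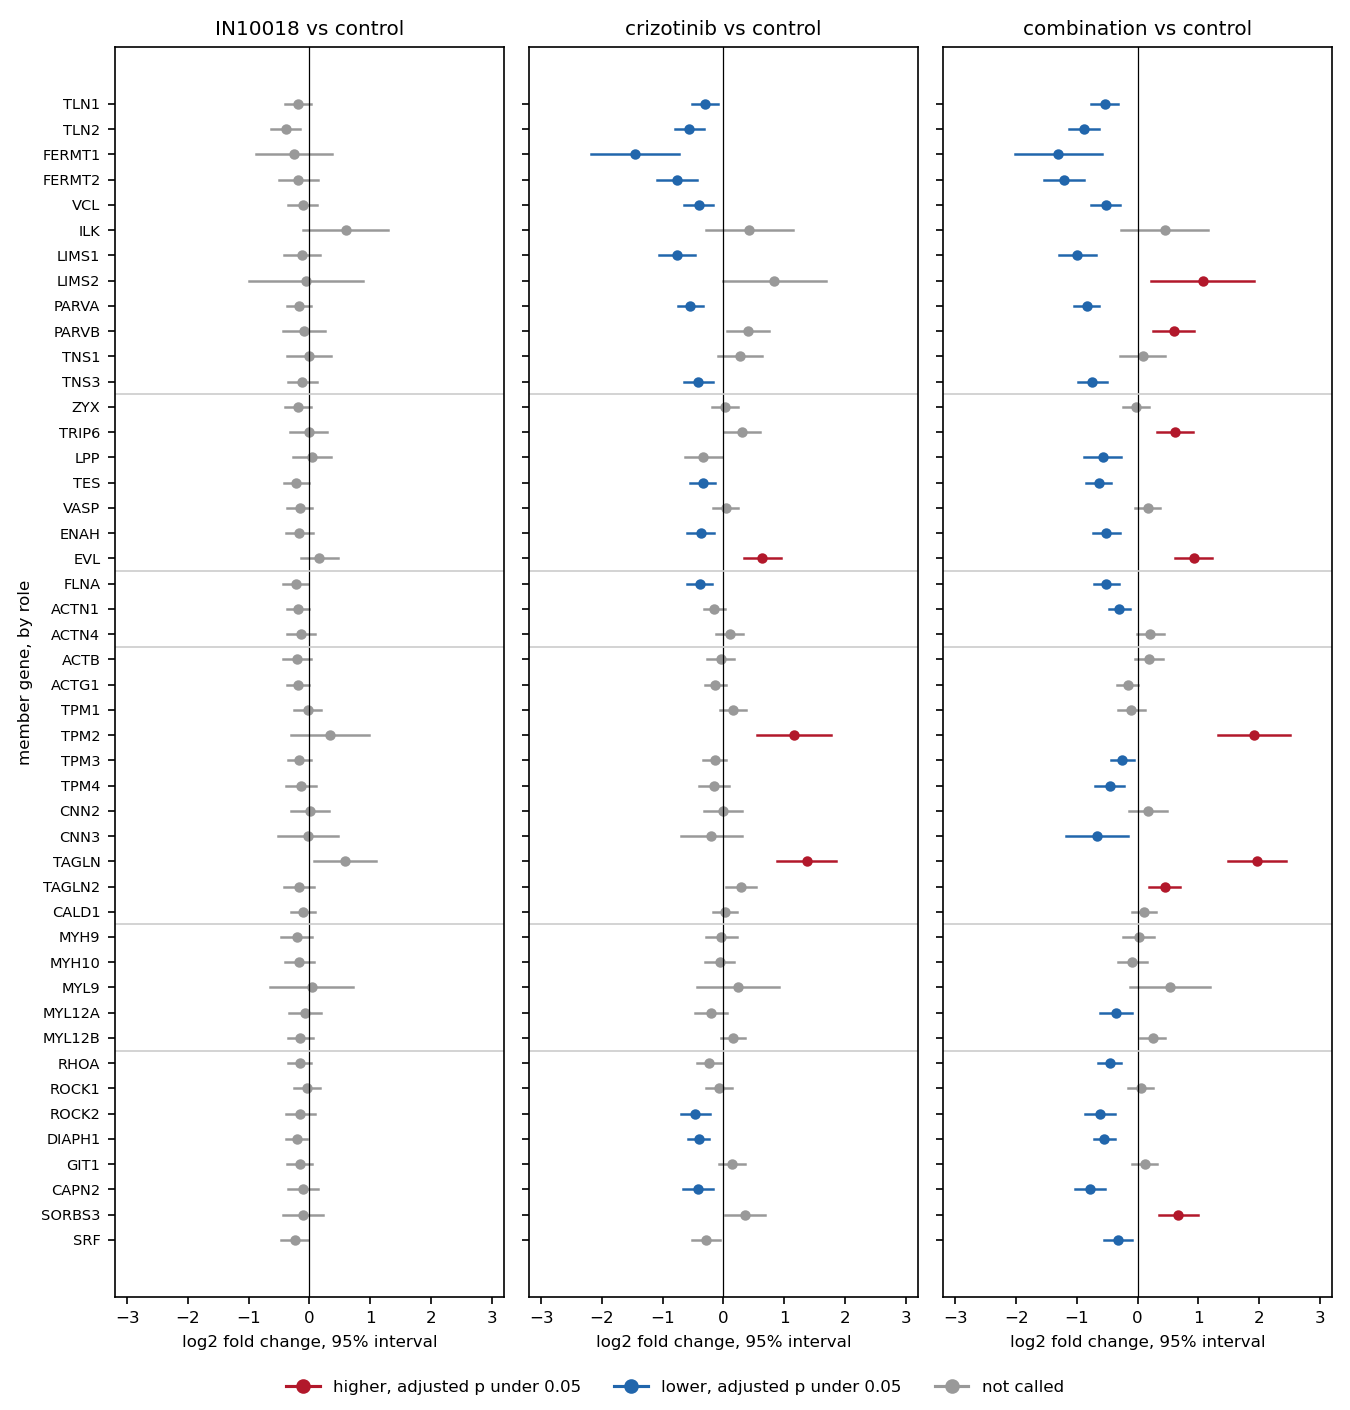
Points show the log2 fold change of each of the 46 members (rows, by role) against control with IN10018, crizotinib and the combination, and lines show its 95% interval. All points are grey (not called) with IN10018, 17 are coloured with crizotinib and 30 with the combination.

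In bulk RNA, fewer cells of a type and less RNA per cell cannot be told apart, which holds for every value below. The core linkers, which join integrins to actin, made the role with the most lower calls. Of 12 measured, 2 rose, 8 fell and 2 did not pass the test with the combination, against 33.7% of all tested genes higher and 29.1% lower. With crizotinib 0 rose and 8 fell, against 20.0% and 17.6%.

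The kindlins FERMT1 and FERMT2 bind integrin beta tails and help to activate integrins. FERMT2 (chr14:52857268-52952435, GRCh38, as are the gene positions below) had 78.0, 60.0 and 96.0 CPM with the combination, against 185, 174 and 182 CPM in control. Each combination library was below each control library, and the log2 change was -1.21 ± 0.17, or 0.433-fold, with an adjusted p of 0.000101. Crizotinib libraries had 130, 82.3 and 107 CPM, also all below control, with a log2 change of -0.77 ± 0.17 and an adjusted p of 0.00586. The IN10018 libraries, at 166, 158 and 153 CPM, gave -0.18 ± 0.17 with an adjusted p of 0.747. FERMT1 was scarce, at 0.238, 0.556 and 0.429 CPM with the combination, against 0.898, 0.968 and 1.12 CPM in control. The fitted log2 change was -1.30 ± 0.37, the widest SE of the lower calls, with an adjusted p of 0.00676. Crizotinib libraries held 0.296, 0.343 and 0.446 CPM of FERMT1, a log2 change of -1.46 ± 0.37 with an adjusted p of 0.0101.

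The pseudokinase ILK, the LIM-domain adaptors LIMS1 and LIMS2 (PINCH proteins) and the parvins PARVA and PARVB form a complex that couples kindlin-bound integrins to actin. Within it, LIMS1 and PARVA fell with the combination while their paralogs LIMS2 and PARVB rose. LIMS1 (chr2:108534355-108687246) had 55.5, 47.4 and 63.9 CPM with the combination, against 114, 104 and 114 CPM in control. Its log2 change was -0.99 ± 0.15, with an adjusted p of 0.000159, and crizotinib gave -0.77 ± 0.15 with an adjusted p of 0.00415. LIMS2 was near the detection limit, at 0.833, 1.46 and 1.10 CPM with the combination, against 0.524, 0.302 and 0.745 CPM in control. The groups did not overlap, and its log2 change of 1.07 ± 0.43 had an adjusted p of 0.0424. That call was lost in 10 of 25 alternatives.

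PARVA (chr11:12377185-12535356) had 68.0, 59.0 and 73.2 CPM with the combination, against 123, 115 and 120 CPM in control. The change was -0.84 ± 0.11 on the log2 scale with an adjusted p of 6.91e-05, and crizotinib, at 86.0, 73.3 and 85.3 CPM, gave -0.55 ± 0.10 with an adjusted p of 0.00361. PARVB (chr22:43999211-44172949) moved the other way, with 57.5, 68.2 and 55.9 CPM in the combination libraries, against 38.5, 38.5 and 43.3 CPM in control. On the log2 scale the change was 0.59 ± 0.18, with an adjusted p of 0.0092. Crizotinib libraries of PARVB scattered widely, at 38.6, 71.0 and 49.8 CPM, and the change of 0.40 ± 0.17 had an adjusted p of 0.0799. ILK had 2.08, 2.08 and 1.41 CPM with the combination and 1.12, 1.94 and 1.01 CPM in control, which overlap. In GENCODE 29, 68.1% of the exon length of ILK overlaps TAF10 on the opposite strand, and the strand setting of the counting was not given, so reads of ILK and TAF10 may not have been told apart. TAF10 itself had 2.10 to 5.69 CPM.

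The talins TLN1 and TLN2 activate integrins and bind vinculin. TLN2 (chr15:62390526-62844631) had 13.0, 15.1 and 15.8 CPM with the combination, against 28.7, 28.3 and 24.2 CPM in control. The fitted log2 change was -0.89 ± 0.13, or 0.542-fold, with an adjusted p of 0.000106. In crizotinib it was at 18.9, 17.4 and 18.6 CPM, a change of -0.56 ± 0.12 with an adjusted p of 0.00599. TLN1, the more abundant talin, had 167, 163 and 199 CPM with the combination, against 275, 233 and 263 CPM in control, a log2 change of -0.54 ± 0.11 with an adjusted p of 0.000824. Vinculin (VCL), which reinforces the bond of talin to actin, gave -0.52 ± 0.12 with an adjusted p of 0.00219, and -0.19 with an adjusted p of 0.061 under the GC and length offset described below. Tensin 3 (TNS3), which binds integrin tails and actin, had 189, 180 and 236 CPM with the combination, against 357, 329 and 330 CPM in control. It fell by 0.75 on the log2 scale (SE 0.12, adjusted p 0.00022). TNS1, at 3.21 ± 0.27 CPM with the combination and 3.0 ± 0.49 CPM in control (SD, n = 3), did not pass the test.

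Among the zyxin-type LIM proteins and the Ena/VASP proteins, 2 rose, 3 fell and 2 did not pass the test with the combination. Of all tested genes, 33.7% were higher and 29.1% lower. The Ena/VASP proteins promote elongation of actin filaments, and their 3 genes did not move together. EVL (chr14:99971449-100144236) had 22.9, 28.1 and 20.6 CPM with the combination, against 12.1, 13.4 and 12.2 CPM in control. Its log2 change was 0.93 ± 0.16, or 1.90-fold, with an adjusted p of 0.000266. Crizotinib libraries, at 15.9, 23.7 and 19.0 CPM, were also all above control, with 0.64 ± 0.16 and an adjusted p of 0.00904. ENAH had 35.1, 29.7 and 36.1 CPM with the combination, against 48.8, 44.2 and 51.3 CPM in control, a log2 change of -0.52 ± 0.11 with an adjusted p of 0.00148. With the GC and length offset described below it was 0.065. VASP had 63.2, 71.8 and 62.5 CPM with the combination and 55.2, 56.5 and 64.2 CPM in control, which overlap.

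Of the LIM proteins, which gather at adhesions and stressed actin fibres, TES (testin) had 25.8, 24.9 and 29.5 CPM with the combination, against 44.6, 38.3 and 42.3 CPM in control, and the groups did not overlap. The log2 change was -0.64 ± 0.11 with an adjusted p of 0.000242. LPP gave -0.58 ± 0.16 with an adjusted p of 0.00566, but 0.015 with the GC and length offset. TRIP6 had 64.5, 80.0 and 59.1 CPM with the combination, against 45.2, 46 and 41.7 CPM in control, a log2 change of 0.61 ± 0.15 with an adjusted p of 0.00332, but -0.25 with the GC and length offset. ZYX, the gene of zyxin, was at 40.2 ± 2.4 CPM with the combination and 40.9 ± 2.0 CPM in control, and the 95% interval of its log2 change ran from -0.24 to 0.19.

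All 3 actin crosslinkers were abundant, and 2 fell with the combination, against 29.1% of all tested genes. Filamin A (FLNA, chrX:154348524-154374638), whose promoter is printed above, crosslinks actin filaments into networks and binds integrins. It had 575, 672 and 714 CPM with the combination, against 963, 892 and 949 CPM in control. On the log2 scale the change was -0.52 ± 0.11 with an adjusted p of 0.000907, and crizotinib gave -0.39 ± 0.11 with an adjusted p of 0.0136. The alpha-actinins bundle filaments. ACTN1 fell by 0.30 on the log2 scale (SE 0.09, adjusted p 0.0101), while ACTN4, at 309 ± 34 CPM with the combination and 268 ± 8.1 CPM in control, did not pass the test.

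The 11 actins and thin-filament proteins held both the largest rises and genes that fell, with 3 higher, 3 lower and 5 not called with the combination. Of all tested genes, 33.7% were higher and 29.1% lower. TAGLN (chr11:117199321-117204782) had 11.3, 15.4 and 8.94 CPM with the combination, against 2.54, 3.09 and 3.41 CPM in control. Every combination library was above every control library, and the log2 change was 1.96 ± 0.25, or 3.90-fold, with an adjusted p of 6.89e-05. With crizotinib TAGLN had 7.35, 10.5 and 5.73 CPM, a log2 change of 1.37 ± 0.25 with an adjusted p of 0.00307. TAGLN2, a related gene of non-muscle cells, had 647, 760 and 613 CPM with the combination, against 502, 484 and 498 CPM in control, a log2 change of 0.44 ± 0.13 with an adjusted p of 0.00782, but -0.19 with the GC and length offset.

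Tropomyosins lie along actin filaments and control which proteins bind them. TPM2 (chr9:35681992-35690121) had 7.62, 12.5 and 7.35 CPM with the combination, against 1.5, 3.63 and 2.02 CPM in control. The fitted log2 change was 1.92 ± 0.30, or 3.78-fold, with an adjusted p of 0.000187. Crizotinib libraries had 3.97, 7.08 and 5.16 CPM, which were all above control, and gave 1.17 ± 0.31 with an adjusted p of 0.0127. TPM2 and TLN1 lie close together on chromosome 9, and with the combination TPM2 rose while TLN1 fell. TPM4 had 194, 157 and 221 CPM with the combination, against 268, 249 and 272 CPM in control, a log2 change of -0.46 ± 0.13 with an adjusted p of 0.00551. TPM3 fell by 0.25 (SE 0.10, adjusted p 0.0348), though it was at 0.099 with the GC and length offset, and 8 TPM3 pseudogenes held reads equal to 10.7% of those of TPM3. TPM1, at 25.5, 21.6 and 28 CPM with the combination and 27.6, 25.1 and 28.1 CPM in control, did not pass the test. Per kilobase of exon, TPM2 rose to a level of 2.82 CPM with the combination, against 0.734 CPM in control, and was below TPM4, at 22.1 CPM per kilobase with the combination and 30.5 in control.

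The cytoplasmic actins were the members with the highest levels per kilobase in control, 560 CPM per kilobase for ACTG1 and 526 for ACTB. Neither was called with any treatment against control. ACTB had 2108, 2391 and 1821 CPM with the combination and 1893, 1751 and 1903 CPM in control, and the 95% interval of its log2 change ran from -0.04 to 0.41. ACTG1 had 1537, 1541 and 1421 CPM with the combination, all below the 1685, 1622 and 1719 CPM of control, with a log2 change of -0.16 ± 0.09 and an adjusted p of 0.129. The calponins CNN2 and CNN3 and caldesmon (CALD1) bind actin and restrain myosin. CNN3 had 6.84, 4.72 and 7.04 CPM with the combination, against 9.50, 8.77 and 11.3 CPM in control, a log2 change of -0.67 ± 0.26 with an adjusted p of 0.0388, which was lost in 8 alternatives. CNN2 and CALD1 did not pass the test, with log2 changes of 0.17 ± 0.16 and 0.10 ± 0.10.

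Non-muscle myosin II, the motor that contracts actin bundles, was the role with the fewest calls, 1 of 5 with the combination. That call was lower, against 29.1% of all tested genes lower and 33.7% higher. The heavy chain genes MYH9 and MYH10 gave log2 changes of 0.02 ± 0.13 and -0.09 ± 0.12. MYH9 had 459, 577 and 474 CPM with the combination, overlapping the 512, 461 and 514 CPM of control. The regulatory light chains MYL12A and MYL12B lie side by side on chromosome 18, at chr18:3247481-3256236 and chr18:3261479-3278431. MYL12A had 82.6, 59.4 and 84.8 CPM with the combination, against 99.2, 89.5 and 101 CPM in control, a log2 change of -0.35 ± 0.14 with an adjusted p of 0.036, and the call was lost in 6 alternatives. MYL12B had 176, 173 and 155 CPM with the combination, against 139, 137 and 149 CPM in control. Its groups did not overlap, but the log2 change of 0.25 ± 0.10 had an adjusted p of 0.0517. MYL9, the light chain best known from smooth muscle, was scarce at 1.07, 1.74 and 1.16 CPM with the combination and 1.05, 0.665 and 1.01 CPM in control, and was not called.

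RHOA, the GTPase that starts stress fibre assembly, had 280, 264 and 323 CPM with the combination, against 408, 370 and 413 CPM in control. Its log2 change was -0.46 ± 0.10 with an adjusted p of 0.00127, and crizotinib, at 326, 331 and 354 CPM, gave -0.24 ± 0.10 with an adjusted p of 0.0718. The formin gene DIAPH1 (chr5:141515016-141619055), whose product elongates actin filaments for RhoA, had 169, 176 and 190 CPM with the combination, against 266, 248 and 269 CPM in control. The change was -0.55 ± 0.09 with an adjusted p of 0.000204, and crizotinib gave -0.41 ± 0.09 with an adjusted p of 0.00559.

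ROCK2, a kinase that raises myosin activity for RhoA, had 159, 138 and 196 CPM with the combination, against 256, 243 and 259 CPM in control, a log2 change of -0.62 ± 0.12 with an adjusted p of 0.000732, but -0.025 with the GC and length offset. Its paralog ROCK1 had 143, 156 and 162 CPM with the combination and 152, 140 and 154 CPM in control, which overlap. CAPN2 (chr1:223701593-223776018), the large subunit of the protease calpain 2, which cleaves talin during adhesion turnover, had 221, 190 and 245 CPM with the combination, against 374, 369 and 388 CPM in control. It fell by 0.79 on the log2 scale (SE 0.13, adjusted p 0.000207), or by 0.44 with the GC and length offset. Crizotinib gave -0.43 ± 0.13 with an adjusted p of 0.0195, a call lost with library totals and without crizotinib library 2, crizotinib library 3 or control library 1. SORBS3, the gene of the vinculin-binding adaptor vinexin, had 50.7, 67.4 and 44.3 CPM with the combination, against 32.5, 34.0 and 35.2 CPM in control, a log2 change of 0.67 ± 0.17 with an adjusted p of 0.00324, but -0.015 with the GC and length offset. GIT1, a scaffold of the adhesion-disassembly machinery, was not called, with 0.12 ± 0.11.

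SRF (chr6:43171299-43181507) had 13.4, 16.2 and 14.8 CPM with the combination, against 18.5, 18.0 and 19.1 CPM in control. The groups did not overlap, and its log2 change was -0.33 ± 0.12 with an adjusted p of 0.024. That call was lost with library totals, with no filter, and without combination replicate 1 or control replicate 1, where its largest adjusted p was 0.274, and the change was -0.96 with the GC and length offset. Of the 10 members with a CArG box in a promoter, 8 fell with the combination and 0 rose, and ACTG1 and CNN2 did not pass the test. With the GC and length offset, LPP (0.015), ROCK2 (-0.025) and ACTN1 (-0.19) were no longer called. CAPN2, FLNA, SRF, TES and TPM4 were still called lower with it, and ACTG1 was then called lower as well, at -0.75. Over all tested genes with a CArG box, 161 in number with these 10 among them, 37.9% were called lower and 25.5% higher.

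From genes of the same pathways outside the 46, 61 were listed and 53 tested. With the combination 15 rose and 24 fell, against 33.7% and 29.1% of all tested genes. With crizotinib the counts were 11 and 18, against 20.0% and 17.6% of all tested genes. With IN10018 edgeR called 0 in either direction (0.345% and 0.158%), with 2 at an unadjusted p under 0.05. The 4 with the smallest p with the combination were DIAPH3, ANLN, ELK3 and MYLK. DIAPH3, a further formin, had 20.8, 19.7 and 25.2 CPM with the combination, against 45.0, 45.0 and 45.9 CPM in control, a log2 change of -1.05 ± 0.11 with an adjusted p of 3.93e-05. ANLN, the gene of the contractile-ring scaffold anillin, had 171, 129 and 205 CPM with the combination, against 442, 445 and 456 CPM in control, a log2 change of -1.41 ± 0.17 with an adjusted p of 6.41e-05. MYLK, whose kinase phosphorylates the myosin light chains, gave -0.75 ± 0.10 with an adjusted p of 8.94e-05.

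The SRF cofactors were a list of 6, with 5 tested. With the combination 4 fell and 1 rose (29.1% and 33.7% of all tested genes), and with crizotinib 4 fell and 0 rose (17.6% and 20.0%). ELK3, an ETS-family cofactor, had 71.6, 62.0 and 83.6 CPM with the combination, against 156, 146 and 157 CPM in control, a log2 change of -1.08 ± 0.13 with an adjusted p of 6.54e-05. The rest of this short list was named after its values were seen. ELK1, ELK4 and MRTFB gave -1.03, -1.29 and -1.22 with the combination, and MRTFA gave 0.33 ± 0.12 with an adjusted p of 0.0264, but -0.22 with the GC and length offset. The MRTFA call was lost or, with that offset, reversed in 8 alternatives.

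**Figure D3:**
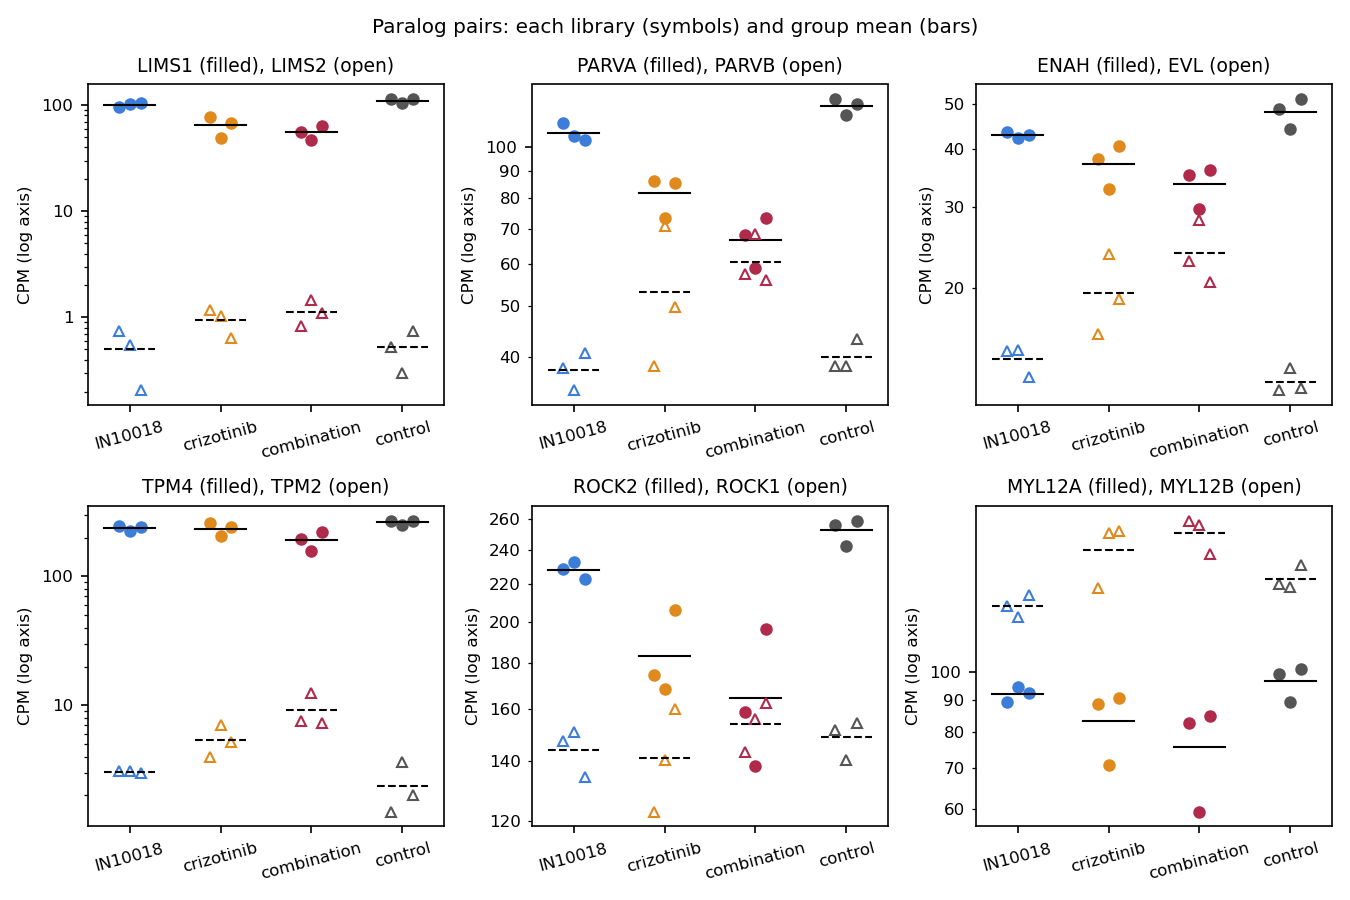
Each panel plots CPM (log axis) of a pair of related members in the 12 libraries by group, filled circles for the first gene and open triangles for the second, with bars at the group means. In the combination libraries the first gene lies lower and, except for ROCK1, the second lies higher than in control.

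Related members were set side by side within each library, where a ratio of CPM does not depend on library scaling. These ratios are not corrected for transcript length. With 3 libraries against 3, the smallest two-sided p that an exact permutation test can give is 0.1, so these ratios are given as values. The ratio of PARVA to PARVB was 1.18, 0.865 and 1.31 with the combination, against 3.19, 2.98 and 2.77 in control. That of ENAH to EVL was 1.53, 1.06 and 1.75 with the combination, against 4.04, 3.29 and 4.20 in control. ROCK2 to ROCK1 stood at 1.11, 0.889 and 1.21 with the combination, against 1.69, 1.73 and 1.68 in control. For MYL12A to MYL12B the values were 0.470, 0.343 and 0.547 with the combination, against 0.714, 0.652 and 0.678 in control. TPM4 to TPM2 gave 25.4, 12.5 and 30.0 with the combination, against 175, 68.0 and 133 in control. The mean log2 ratio of LIMS1 to LIMS2 was lower by 2.11 with the combination than in control, a value that rests on the low counts of LIMS2. In each of these 6 pairs the first gene has the lower GC content, though ROCK2 and ROCK1 are close, at 39.9 and 40.5%. The 6 pairs are shown out of 15 compared, of which 12 did not overlap between the combination and control. No share over other pairs of genes was computed. Of single tested genes, 37.9% lay wholly above and 33.2% wholly below control, so the 12 are not shown to be particular to these pairs. Overlapping were FERMT2 to FERMT1, MYH10 to MYH9 and TLN2 to TLN1, whose mean log2 ratios differed from control by 0.06, -0.10 and -0.34.

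Adding crizotinib to IN10018 gave 13 members higher and 18 lower in the combination than with IN10018 alone, against 29.7% of all tested genes called higher and 27.5% lower. All 3 combination libraries lay above all IN10018 libraries for 16 members and below them for 19, against 34.8% and 32.8% of all tested genes. Without combination library 2, 8 were higher, against 20.6% of all genes tested in that fit, and with the GC and length offset described below, 7 were, against 23.2%. PARVA, at 68.0, 59.0 and 73.2 CPM with the combination and 111, 105 and 103 CPM with IN10018, fell by 0.67 on the log2 scale (SE 0.11, adjusted p 0.000411). FERMT2 gave -1.03 ± 0.17 with an adjusted p of 0.000462, and LIMS1 gave -0.86 ± 0.15 with an adjusted p of 0.000577. TAGLN, at 11.3, 15.4 and 8.94 CPM with the combination and 4.70, 4.75 and 4.21 CPM with IN10018, gave 1.38 ± 0.23 with an adjusted p of 0.000506. Called in this comparison and not against control were ACTB, ACTN4, VASP, MYL12B and GIT1, all higher in the combination. Each of these 5 calls was lost or reversed with the GC and length offset, and those of ACTB, ACTN4, VASP and GIT1 were lost without combination library 2. GIT1 was called in 10 of 25 alternatives, VASP in 20, ACTN4 in 21, ACTB in 23 and MYL12B in 24. ACTB, at 2108, 2391 and 1821 CPM with the combination against 1599, 1533 and 1674 CPM with IN10018, gave 0.40 ± 0.12 with an adjusted p of 0.00994, and 0.049 with an adjusted p of 0.742 under that offset. Whether the 2 comparisons differ for these genes was not tested.

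Adding IN10018 to crizotinib gave 0 members called in either direction in the fit over all 12 libraries without pairing, against 0% of all tested genes called higher and 0.0117% lower. DESeq2 and limma-voom also called 0, and 11 members had an unadjusted p under 0.05 in edgeR. The combination lay wholly above crizotinib for 1 member and wholly below it for 7, against 5.45% and 4.77% of all tested genes. The smallest p was that of CAPN2, at 221, 190 and 245 CPM with the combination and 333, 233 and 275 CPM with crizotinib. These groups overlap, though the combination library was lower in each pair of the same number, and the log2 change was -0.36 ± 0.13 with a 95% interval from -0.61 to -0.11 and an adjusted p of 0.213. TPM2 gave 0.75 ± 0.28, and TAGLN gave 0.59 ± 0.22, both with an adjusted p of 0.213.

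For this comparison the calls depended on pairing. Crizotinib and combination libraries of the same number deviated together from their group means, with correlations across genes of 0.22, 0.62 and 0.27. Crizotinib library 1 and combination library 3, of different numbers, had a correlation of 0.42, above those of numbers 1 and 3. The remaining pairs of different numbers ran from -0.53 to 0.08. The labels do not say that a number marks a shared culture, and whether the numbers mark true pairs was not tested. With the number as a block in a fit of these 6 libraries, an alternative chosen after seeing the data, 4 members were higher and 5 lower in the combination than with crizotinib, against 12.1% and 11% of all genes tested in that fit. Those higher were TPM2 (0.77, adjusted p 0.00192 in edgeR), TAGLN (0.61, adjusted p 0.00382), SORBS3 and TRIP6, and those lower were FERMT2 (-0.44, adjusted p 0.00733), CAPN2 (-0.34, adjusted p 0.0259), TNS3, PARVA and TPM4. With the GC and length offset in the same blocked fit, 3 were higher and 5 lower, against 4.87% and 5.02% of all genes. TPM2, TAGLN and TNS3 kept their calls there, at 0.64, 0.46 and -0.39, and the other 6 lost them, TRIP6 with a change of sign to -0.024. The block over all 12 libraries gave 0 members, with 15 at an unadjusted p under 0.05, and 0.526% of all tested genes higher and 0.0234% lower. In all 3 pairs the combination library was higher for 10 members and lower for 22, against 27.1% and 28.7% of all tested genes.

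Crizotinib library 2 was the library of its group farthest toward the combination's direction for 23 of the 30 members called with the combination, and it also had the low mitochondrial share. Combination library 2, with the lowest mitochondrial share of all 12, was likewise the farthest of its group for 23 of the 30. This library was among those by which the 30 were called, and neither count was made over all tested genes. Without crizotinib library 2, 6 members were called higher and 9 lower in the combination than with crizotinib, against 15% and 17.3% of all genes tested in that fit, and 8 members rather than 14 were lower with crizotinib than in control. The part of the mitochondrial share in these changes was not tested.

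Departure of the combination from the sum of the single-drug changes on the log2 scale was called for 0 members in either direction, against 0.0585% of all tested genes higher and 0.0117% lower. DESeq2 and limma-voom also called 0, and 1 member had an unadjusted p under 0.05 in edgeR. That was ACTB, with a departure of 0.44 ± 0.16, a 95% interval from 0.12 to 0.76 and an adjusted p of 0.532. The 95% interval was -0.72 to 0.20 for FERMT2, -0.51 to 0.32 for LIMS1 and -0.85 to 0.86 for TAGLN, so departures of either sign remain possible for them.

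**Figure D4:**
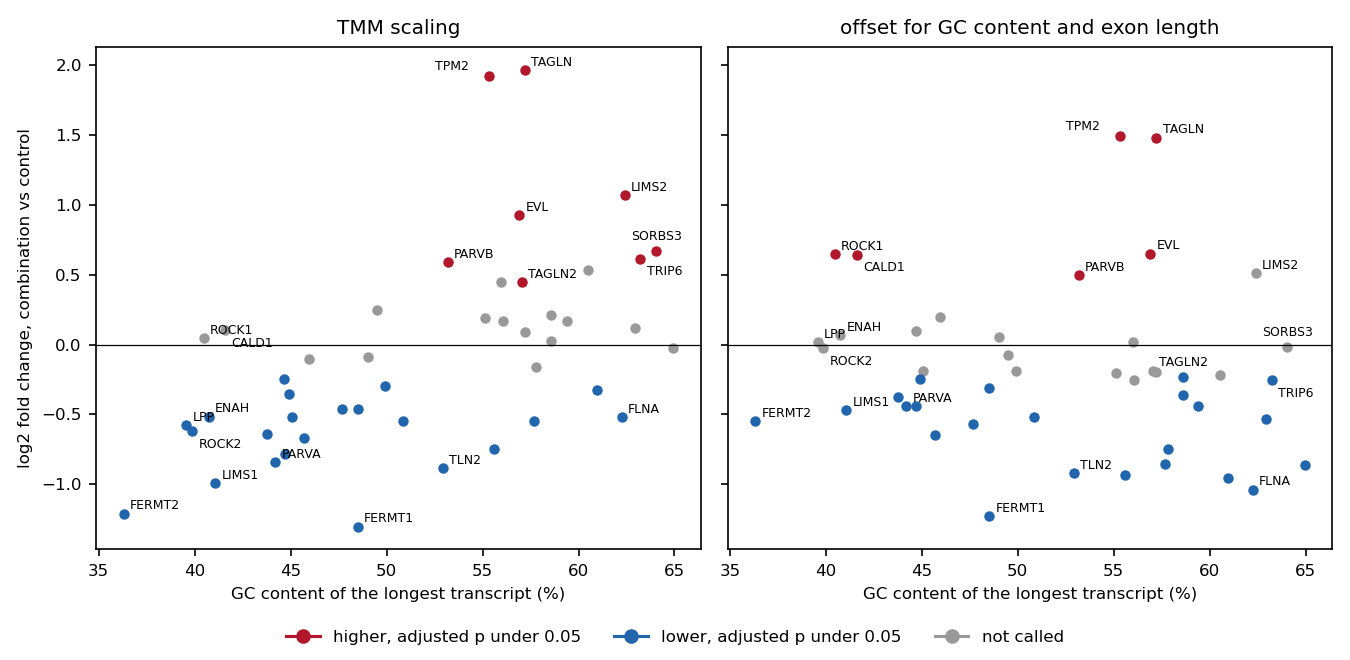
Log2 fold change of the combination against control is plotted against the GC content of the longest transcript for the 46 members, with TMM scaling (left) and with an offset for GC content and exon length (right). On the left the red points (higher) lie at 53.2 to 64.0% GC, and on the right TRIP6, TAGLN2 and SORBS3 lie below the zero line while TAGLN, TPM2, EVL and PARVB stay above it.

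Base composition moved with these changes. Members called higher with the combination had a median GC content of 57.1%, those called lower 45.4% and those not called 56.6%. Across the 46 members, Spearman's correlation between GC content and the log2 change was 0.59 with the combination and 0.56 with crizotinib. Across 16866 tested genes it was 0.52 with the combination and 0.48 with crizotinib. These genes share libraries and are not independent replicates. The offset for GC content and exon length was fitted in each library, treated libraries included. It takes out any difference that follows GC content or length, whatever its source, so a weaker correlation was fixed in advance. With this offset, the correlation over the members was -0.19 with the combination. Then 6 members were called higher and 23 lower with the combination, against 25.8% and 29.4% of all tested genes. Of the 30 calls, 20 were kept, 4 were lost and 6 changed sign. TAGLN, TPM2, EVL and PARVB stayed higher, at 1.48, 1.49, 0.65 and 0.49 on the log2 scale. FERMT2, LIMS1 and PARVA stayed lower at -0.55, -0.47 and -0.44, nearer to 0 than with TMM, while TLN2 at -0.92 and FLNA at -1.04 were as low or lower. VCL, ACTN1, ROCK2 and LIMS2 lost their calls. TRIP6, TAGLN2, SORBS3, LPP, ENAH and TPM3 changed sign, and TRIP6 was then called lower, at -0.25 with an adjusted p of 0.0161. ROCK1 and CALD1, not called with TMM, were called higher with this offset, at 0.65 and 0.64. ZYX, VASP, ACTG1, MYH9, GIT1 and ACTN4, also not called with TMM, were called lower with it, at -0.86, -0.44, -0.75, -0.36, -0.53 and -0.23. Whether base composition plays a part in the changes was not tested.

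Over all 25 alternatives, 16 members were called with the combination in every one that tested them. Those higher were EVL, PARVB, TAGLN and TPM2. Those lower were CAPN2, DIAPH1, FERMT1, FERMT2, FLNA, LIMS1, PARVA, RHOA, TES, TLN1, TLN2 and TNS3. With crizotinib alone 8 were: EVL and TAGLN higher, and DIAPH1, FERMT1, FERMT2, LIMS1, PARVA and TLN2 lower. The share of all tested genes called in every alternative was not computed, so these counts do not set the members apart. In the main fit, 33.7% of all tested genes were higher and 29.1% lower with the combination, and 20.0% and 17.6% with crizotinib. FERMT1 was left out by the stricter filter on low counts.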

How the data were processed

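The deposited matrix holds raw read counts per gene for the 12 libraries, without normalization. Per the submitters' processing notes, the authors' tools were HISAT2, featureCounts, Trimmomatic, FastQC and DESeq2, on GRCh38 (hg38). Tool versions, the annotation release and the counting's strand setting are not given in the sources used here. Per the labels' protocols, TRIzol was used for extraction and a directional kit for the libraries. The description label names adipogenic differentiation, which no other label does. The adipocyte marker ADIPOQ had no reads, and FABP4 was at 71.3 CPM in control.

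One robust quasi-likelihood fit over the 12 libraries was made in edgeR 4.0.16 under R 4.3.3, after TMM scaling and filterByExpr. The common biological coefficient of variation was 0.139. An SE is the absolute log2 change divided by the square root of F, and a 95% interval is 1.96 SE each way. Exon lengths, positions and GC content are from GENCODE 29. Symbols matched for all 46 members. Alternatives used limma 3.58.1, DESeq2 1.42.0 and other scalings, filters, offsets and sets of libraries. The fit was also run on simulated data, with counts drawn separately for each gene. Those data lack the deviations shared across genes that the crizotinib and combination libraries show, so that run does not test the calls given here.

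Members, gene lists, roles and tests were chosen with earlier results of these data known. Values in every library are given for members with the smallest p (up to 6 each way per comparison) and for paralogs. From other lists, up to 4 genes with the smallest p were named.

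Replicate pairs of the same group differed beyond counting noise, so no pair was treated as a repeat deposit of 1 library. Residuals of same-number libraries correlated above 0.1 in 8 of 18 pairs and those of different numbers in 4 of 36. Every same-number pair was above 0.1 between crizotinib and the combination, where blocked values are given, and not between other groups. Depth limits scarce genes such as LIMS2, FERMT1, MYL9 and ILK, where the smallest count of any member in any library was 3 reads.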

Additional observations from a re-analysis of the deposited data

How the results depend on the processing

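Of the 30 members called with the combination against control, 16 were called in every alternative that tested them. The share of all tested genes called in every alternative was not computed. Every change of sign in a called value came with the GC content and length offset, chosen after seeing the data. Under it, the log2 changes with crizotinib against control were -0.45 for ZYX, -0.23 for TRIP6, -0.36 for VASP and -0.24 for GIT1. With the combination against control they were -0.25 for TRIP6, 0.015 for LPP, -0.44 for VASP, 0.065 for ENAH, -0.23 for ACTN4, 0.099 for TPM3, -0.19 for TAGLN2, -0.36 for MYH9, -0.53 for GIT1, -0.015 for SORBS3 and -0.22 for MRTFA. With the combination against IN10018 they were -0.69 for ZYX, -0.21 for TRIP6, 0.018 for LPP, -0.24 for VASP, 0.24 for ENAH, -0.063 for ACTN4, -0.50 for ACTG1, 0.12 for ROCK2 and -0.38 for GIT1, and 7 members rather than 13 were higher (23.2% rather than 29.7% of all tested genes). The cause was not tested.

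With library totals as scaling, crizotinib had 8 members higher and 7 lower (28.2% and 11.4% of all tested genes), and the combination 14 higher (41.6%). A fit of only the libraries compared gave 1 member higher and 8 lower with IN10018 (8.34% and 5.58% of all genes tested). With no filter, the combination against crizotinib gave 2 higher and 1 lower (2.16% and 2.72%). The leading axis of the residuals within groups was also tried as a covariate, chosen after seeing the data. It gave 1 higher and 2 lower with IN10018 (5.49% and 3.55% of all tested genes) and 7 higher with crizotinib (29.7%). The combination against crizotinib had 7 higher and 13 lower (16.6% and 19.2%), and the departure from additivity 5 higher and 3 lower (9.22% and 10.2%). Without the libraries numbered 2 of crizotinib and combination, also chosen after seeing the data, 1 was lower with IN10018 (1.36% of all tested genes). The combination against crizotinib then had 5 higher and 10 lower (10.9% and 14.4%), and the departure 2 higher and 1 lower (5.41% and 5.71%).

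Leaving out each library in turn gave 0 calls with IN10018 and in the departure from additivity. Of all tested genes, at most 0.968% were higher and 0.309% lower with IN10018, and 2.25% and 2.37% in the departure. With crizotinib, 2 to 8 were higher and 6 to 16 lower, against 7.68 to 25.4% and 7.74 to 20.0% of all tested genes. With the combination, 7 to 9 were higher and 18 to 22 lower, against 25.4 to 35.1% and 24.8 to 30.0%. Against IN10018, the combination had 8 to 13 higher and 12 to 19 lower (20.6 to 31.1% and 23.4 to 28.8% of all tested genes). Against crizotinib, it had 0 to 6 higher and 0 to 9 lower (0 to 15% and 0.0113 to 17.3%). With the combination, other pathway genes gave 10 to 16 higher and 22 to 24 lower, against 25.4 to 35.1% and 24.8 to 30.0%. Without crizotinib replicate 2, the combination against crizotinib gave the 6 higher and 9 lower.

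With the replicate number as a block, 29 of the 30 combination calls were kept, LIMS2 being lost. Counts with crizotinib were 3 higher and 15 lower (22.7% and 20.6% of all tested genes). Residual correlations of different-number libraries ran from -0.53 to 0.42. Same-number ones ran from -0.03 to 0.62, and were all above 0.1 only between crizotinib and the combination. There the block in a fit of those 6 libraries gave 4 higher and 5 lower, and 3 higher and 5 lower with the GC content and length offset, both chosen after seeing the data. Members with few reads, LIMS2, FERMT1, MYL9 and ILK, had the widest intervals.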
